A study of Homo sapiens with 19 samples.

Results

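LTR2B sgRNA 2 was 1 of 4 single guide RNAs (sgRNAs) that the study pooled to bring dCas9-KRAB to LTR2B elements. Its genomic sites were taken as every 20-nt match to the guide in hg38, on chromosomes 1 to 22, X and Y and on either strand, that held at most 3 mismatches and was followed by an NGG protospacer adjacent motif (PAM). There were 1012 such sites, of 2379 sites found by the same search for all 4 sgRNAs, against 213 for sgRNA 1, 599 for sgRNA 3 and 555 for sgRNA 4. Of the 1012, 110 matched the guide perfectly, 341 held 1 mismatch, 347 held 2 and 214 held 3. The study profiled leukaemia cell lines by chromatin immunoprecipitation sequencing (ChIP-seq), and 5 of its peak lists were used here. The dCas9 list came from K562 cells, a chronic myeloid leukaemia line, transduced with lentivirus carrying KRAB-dCas9-P2A-mCherry under the SFFV promoter and with the pool of 4 LTR2B sgRNAs in a vector carrying BFP, and sorted for both fluorophores. H3K27ac was profiled in 2 lines without transduction (HL-60, Molm13) and in 2 that carried dCas9-KRAB with an empty sgRNA vector (K562, OCI-AML3). HL-60, Molm13 and OCI-AML3 are acute myeloid leukaemia lines. All 5 groups were 1 library each, so that no value below has a replicate error, and 14 of the 19 samples (inputs, other marks and the cells with sgRNAs profiled for histone marks among them) were not analysed here.

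Catalytically inactive Cas9 (dCas9) is led to DNA by the base pairing of its guide, and it must first recognise the PAM beside the target. Pairing starts at the PAM and runs outwards, so that mismatches in the PAM-proximal seed are generally the least tolerated. Fused to dCas9, the KRAB domain recruits machinery that deposits repressive chromatin, whereas H3K27ac marks active promoters and enhancers. LTR2B elements are long terminal repeats (LTRs) left by an endogenous retrovirus, and related LTR2 copies share much of their sequence, so a single guide can have many near-matches.

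The guides as listed by the study are shown first, because the sites of sgRNAs 1, 3 and 4 lie beside those of sgRNA 2.
sgRNA 1: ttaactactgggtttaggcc
sgRNA 2: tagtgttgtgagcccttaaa
sgRNA 3: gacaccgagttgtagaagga
sgRNA 4: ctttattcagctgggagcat
The commonest forms of the sgRNA 2 site, read from hg38 with their PAM as the last 3 bases, differed from the guide at a few fixed positions. Capitals mark the bases that differ from sgRNA 2, and positions are counted from 1 at the guide's 5′ end, so that position 20 touches the PAM.
perfect: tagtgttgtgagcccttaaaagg
T4A: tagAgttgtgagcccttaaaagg
T4A and G10A: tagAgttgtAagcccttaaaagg
T4A, G10A and A20G: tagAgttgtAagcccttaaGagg
T1C: Cagtgttgtgagcccttaaaagg
T4C: tagCgttgtgagcccttaaaagg

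Most near-matches of sgRNA 2 were versions of a single alternative site. T4A alone accounted for 286 of the 341 sites with 1 mismatch, T4A with G10A for 179 of the 347 with 2, and T4A, G10A and A20G together for 36 of the 214 with 3. Of the 902 sites with any mismatch, 832 (92.2%) differed from the guide at position 4 and 371 (41.1%) at position 10, while no other position was changed in more than 54. The PAM was almost invariant, with AGG at 982 of the 1012 sites (97.04%).

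The bases around the site separated the perfect and T4A forms. The 30 bases on each side were compared with the majority sequence of the perfect sites and with that of the 101 T4A sites with no other sgRNA site nearby, counting insertions and deletions as differences. All 110 perfect sites were closer to the perfect majority (median identity 95%, against 71.7% to the other), and 275 of the 286 T4A sites were closer to the T4A majority (median 90%, against 73.3%). Since each majority was built from members of its own group, these values describe the groups and do not test them. The 11 T4A sites with perfect-like flanks included 10 with a dCas9 peak, whereas 49 of the 275 with T4A-like flanks had one (17.8%). All 11 had a site of another sgRNA with at most 1 mismatch within 600 bp, against 18 of the 275, of which 5 were occupied, so that flank and neighbouring site cannot be told apart in the full count. The 30 bases just 5′ of the first occupied intergenic site of each form, with no other sgRNA site nearby, show the difference. In this pair it is greatest next to the site, and other sites were not compared by distance. The flanks of the T4A example had 80% identity to the perfect majority, the highest among the 101 T4A sites without another sgRNA site nearby (median 73.3%).
perfect, chr2:142586761-142586790, minus strand: atcaatcatggccctttcatgtaaaatctt
T4A, chr1:211694400-211694429, plus strand: tcaatcatgcccctctcatgtgcaccccct

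Sites of the other 3 sgRNAs recurred at fixed distances and always on the opposite strand. Measured along the strand of sgRNA 2, an sgRNA 1 site most often lay at -194 bp (112 of 167 sites that had one), an sgRNA 4 site at 74 bp (185 of 422) and an sgRNA 3 site at 99 bp (173 of 483). A site of another sgRNA within 600 bp, with at most 3 mismatches and NGG, is called a partner below. Perfect sgRNA 2 sites had an sgRNA 1 partner at 87.3%, an sgRNA 3 partner at 85.5% and an sgRNA 4 partner at 69.1%. Sites with 1 mismatch had them at 15.0%, 54.0% and 34.6%. Only 7 perfect sites lacked any partner, against 107, 131 and 80 sites with 1, 2 and 3 mismatches. Of the 101 T4A sites without a partner, 43 held an sgRNA 3 match with at most 3 mismatches but no NGG in the window from 83 to 113 bp, and 25 held such an sgRNA 4 match between 59 and 89 bp, whereas none held an sgRNA 1 match of that kind between -209 and -179 bp.

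No sgRNA 2 site fell in a coding exon. Of the 1012, 538 were intergenic, 414 lay in introns, 39 in exons of non-coding transcripts and 21 in UTRs, by the GENCODE annotation. A transcription start site (TSS) lay within 500 bp of 54 sites, and 16 of those 54 had a dCas9 peak (29.6%), among them all 5 perfect sites so placed.

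A site was called occupied where at least 1 of its 20 bases lay in a dCas9 peak of the K562 list. Of the 1012 sites, 227 were occupied (22.4%, 95% Wilson interval 19.97 to 25.1%). They lay in 227 different peaks of the 393 on these chromosomes (57.8%), with no peak holding more than 1, and 42 of those peaks held no site of another sgRNA. For comparison, 27.2% of the sites of all 4 sgRNAs and 0.00525% of all 303665328 20-nt words before an NGG in hg38 overlapped a dCas9 peak. Such intervals cover counting error over sites only. Sites are not replicates, and the read depth behind the peak lists is unknown.

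Occupancy fell from 0 to 1 and from 1 to 2 mismatches, and no difference was detectable between 2 and 3. It was 86.4% at perfect sites (95 of 110, interval 78.7 to 91.6%), 26.7% with 1 mismatch (91 of 341, 22.3 to 31.6%), 7.49% with 2 (26 of 347, 5.16 to 10.75%) and 7.01% with 3 (15 of 214, 4.29 to 11.2%). Perfect sites exceeded 1-mismatch sites by 59.7 percentage points (Newcombe interval 50.6 to 66.5, two-sided Fisher's exact test, Benjamini-Hochberg adjusted p = 7.1e-29), and those exceeded 2-mismatch sites by 19.2 points (13.7 to 24.65, exact Fisher's test, adjusted p = 2.16e-11). Between 2 and 3 mismatches the difference was 0.483 points (-4.35 to 4.73, exact Fisher's test, adjusted p = 0.869). These differences do not hold partners constant. A partner with at most 1 mismatch lay near 101 of the 110 perfect sites but only 70 of the 341 with 1 mismatch. Among sites with such a partner, 89 of 101 perfect (88.1%) and 44 of 70 1-mismatch sites (62.9%) were occupied, a smaller gap that was not tested.

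The shares were compared between sites with and without a partner, and then by how well the partner matched its own guide. At perfect sites occupancy was 87.4% with a partner (90 of 103) and 71.4% without (5 of 7), a difference of 16.0 points (-5.84 to 51.85, exact Fisher's test, adjusted p = 0.243). At 1-mismatch sites it was 29.9% with (70 of 234) and 19.6% without (21 of 107), a difference of 10.3 points (0.144 to 19.2, exact Fisher's test, adjusted p = 0.0974). Neither passed the threshold of 0.05. When only partners with at most 1 mismatch were counted, the 1-mismatch sites with such a partner exceeded those without by 45.5 points (32.8 to 56.65, exact Fisher's test, adjusted p = 7.95e-13). By the best partner nearby, 1-mismatch sites were occupied at 34 of 45 where it was perfect, at 10 of 25 where it held 1 mismatch, at 18 of 87 with 2, at 8 of 77 with 3 and at 21 of 107 where there was none. A partner with 2 or 3 mismatches therefore went with no higher share (26 of 164, 15.9%) than no partner at all, although this pair was not tested.

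At sites with 2 or 3 mismatches, nearly all occupied sites lay beside a well-matched site of another sgRNA, in counts that are given as a description. With a partner of 0 or 1 mismatch, 37 of 107 were occupied (34.6%, 26.2 to 43.98%), against 3 of 243 (1.23%) with a partner of 2 or 3 mismatches and 1 of 211 (0.474%) with none. None of the 131 sites with 2 mismatches and no partner was occupied, which allows a share of up to 2.29%. Without a partner, occupied T4A sites were found where T4A was the only mismatch, and none where it was 1 of 2. T4A alone without a partner was occupied at 20 of 101 (19.8%, 13.2 to 28.6%), whereas T4A with G10A was occupied at 0 of 82, which allows up to 3.66%, and T4A with another second substitution at 0 of 44, which allows up to 6.82%. The 13 occupied sites with T4A and G10A were all among the 39 with a partner of at most 1 mismatch.

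The place of the dCas9 summit differed with the sgRNA sites that were present. The summit is the position of highest signal in a peak, and its distance is given from the middle of the sgRNA 2 site along that site's strand. At the 27 occupied sites without a partner the median distance was 6.5 bp, and 26 of the 27 summits lay within 50 bp. At the 21 of these with 1 mismatch the summits lay between -34.5 and 33.5 bp. At the 13 occupied T4A and G10A sites the summits instead lay between 49.5 and 77.5 bp, and in all 13 the nearest sgRNA site was that of sgRNA 4. At the 5 occupied 3-mismatch sites whose only partner was sgRNA 3, all 5 summits were nearest the sgRNA 3 site, at 78.5 to 102.5 bp. Over all 41 occupied sites with 2 or 3 mismatches, 22 summits were nearest sgRNA 4, 10 nearest sgRNA 3 and 9 nearest sgRNA 2. Among the 60 occupied perfect sites with all 3 partners, 24 summits were nearest sgRNA 2, 28 nearest sgRNA 4 and 8 nearest sgRNA 3. No summit at an sgRNA 2 site was nearest an sgRNA 1 site, in any of the 227.

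Peaks at perfect sites were higher and wider than those at isolated T4A sites. Fold enrichment, the caller's ratio of signal to local background at the summit, had a median of 11.9 at the 95 occupied perfect sites (3.90 to 26.3) and 7.25 at the 91 with 1 mismatch (3.75 to 20.7). Without a partner the medians were 8.93 at the 5 perfect sites (6.68 to 14.3) and 6.40 at the 20 T4A sites (4.64 to 10.75), with median widths of 288 bp and 131.5 bp. At the 8 occupied loci where all 4 sgRNAs matched perfectly, the median fold enrichment was 17.96 and the median width 614.5 bp. These values are given as a description, and no test of peak height or width was run.

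Among single mismatches, those in the PAM-proximal positions 11 to 20 were occupied at 9 of 18 sites (50%) and those in positions 1 to 10 at 82 of 323 (25.4%), a difference of 24.6 points (3.05 to 46.05, two-sided Fisher's exact test, p = 0.029). T4A alone made up 286 of the 323 sites with a mismatch in positions 1 to 10, and it was occupied at 59 (20.6%). Single mismatches other than T4A, at any position, were occupied at 32 of 55 sites (58.2%). The comparison is therefore largely one of T4A with other substitutions. The groups also differed in their partners. All 18 PAM-proximal sites had a partner and 16 of them one with at most 1 mismatch, against 54 of the 323 others. Among sites with such a partner, 8 of 16 PAM-proximal (50%) and 36 of 54 PAM-distal sites (66.7%) were occupied, which turns the direction. No PAM-proximal mismatch stood alone, so that mismatch position, the T4A substitution and partner cannot be told apart. Of the individual substitutions, T1C was occupied at 7 of 9 sites and T4C at 4 of 7. Of 12 kinds of PAM-proximal substitution, 6 had an occupied site and 6 had none. G12A, C13T and C15T were occupied at 2 of 2 sites each and C14T at 0 of 3, while A11T, C14A, C15A, T17C and A18C had 1 unoccupied site each. Of 15 PAM-distal kinds, 13 had an occupied site, with T6C and T7G at 2 of 2, and G5A had none at 3 sites.

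Perfect sgRNA 2 sites were occupied more often than those of sgRNA 1 (42 of 82, 51.2%), by 35.1 points (22.1 to 47.0, Fisher's exact test, adjusted p = 4.05e-07), and than those of sgRNA 4 (116 of 157, 73.9%), by 12.5 points (2.605 to 21.5, adjusted p = 0.0221). The call against sgRNA 4 was lost where the site had to be within 100 bp of the summit (9.48 points, -0.816 to 18.97, exact Fisher's test, adjusted p = 0.115). Against sgRNA 3 (73 of 80, 91.25%) the difference was -4.89 points (-13.7 to 4.84, exact Fisher's test, adjusted p = 0.363). The comparison with sgRNA 1 depended on where the peak had to lie. It was 76.6 points where the site had to be within 100 bp of the summit, and 6.16 points (-3.615 to 16.8, exact Fisher's test, adjusted p = 0.43) where a peak within 200 bp sufficed, a setting chosen after the data were seen. The sites of the 4 sgRNAs share loci, so these groups are not independent.

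At 7 perfect sites no other sgRNA had a site with NGG within 600 bp, although 2 of the 7 held an sgRNA 4 match of at most 3 mismatches that lacked the NGG. Of these, 5 were occupied. The strongest lay at chr6:86609850-86609869, in an intergenic region, with a fold enrichment of 14.3 and its summit at 3.5 bp. The site at chr12:128004677-128004696 had a fold enrichment of 9.19, that at chr2:142586741-142586760 of 8.93 and that at chr4:25372627-25372646 of 8.275. The last of these was 4627 bp from the TSS of ANAPC4, which encodes a subunit of the anaphase-promoting complex. The weakest, at chr5:179048648-179048667, had 6.68. The 2 unoccupied sites were chr5:102683061-102683080 and chrX:142260988-142261007, both in introns of non-coding genes, and the nearest dCas9 peak was 9849355 bp away from the first and 2373668 bp from the second.

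In all, 15 perfect sites were unoccupied, and 10 of them had a perfect partner, against 86 of all 110 perfect sites. A peak began 2 bp from the site at chr3:86092340-86092359, 14 bp from that at chr11:90422840-90422859 and 165 bp from that at chr15:32506041-32506060. Read placement differed at some of the others. The deposited lists rest on uniquely mapped reads, and uniqueness was described here as the share of 75-nt words around a site (300 bp on each side) that occur once in hg38. This share was 13.9% at chr15:30501660-30501679 and at chr15:32506041-32506060, and 0% at chrY:1172271-1172290 and chrY:2179364-2179383. The copies at the same coordinates on chromosome X, also at 0%, were occupied, with fold enrichments of 8.415 and 11.8. None of the 30 sgRNA 2 sites on chromosome Y was occupied, including the third perfect one, chrY:12994666-12994685, where 94.3% of words were unique. Whether these K562 cells carried a chromosome Y was not tested, so these sites may not have been present. They are counted as unoccupied in the shares above. Without chromosome Y, perfect sites exceeded 1-mismatch sites by 61.4 percentage points, against 59.7 with it. Leaving aside the sites with a peak within 200 bp, those under 50% unique and those on Y, 8 perfect sites remained. They were chr5:23420216-23420235, chr5:102683061-102683080, chr9:31444037-31444056, chr9:76956640-76956659, chr14:39876594-39876613, chr20:15980000-15980019, chrX:142260988-142261007 and chrX:142265478-142265497. The nearest peak was 5539 bp away at the site on chromosome 20 and more than 2 Mb away at the other 7. Median uniqueness was 93.35% at the 95 occupied and 84.98% at the 15 unoccupied perfect sites, and its part in the calls was not tested. Among sites at least 50% unique, 93 of 104 perfect sites (89.4%) and 91 of 324 with 1 mismatch (28.1%) were occupied.

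Of the 41 occupied sites with 2 or 3 mismatches, 40 had a partner. The exception, at chr6:28567079-28567098 with T4A, T6C and A18G, had a fold enrichment of 5.81, a summit 100.5 bp away and H3K27ac in K562, OCI-AML3 and Molm13. The highest of the 41 was a site with T4A, G10A and A20G at chr6:166989425-166989444 (fold enrichment 18.1), with a perfect sgRNA 3 partner at 99 bp and its summit at 94.5 bp. A further site of that form, at chr4:190016392-190016411, had 17.6 and likewise a perfect sgRNA 3 partner. The 3 occupied sites whose partners all held 2 or 3 mismatches were chr7:64804384-64804403 (A2G and T4A, 6.365), chr9:133418598-133418617 (T4G and G10A, 7.34) in an intron of ADAMTS13 and 511 bp from the TSS of REXO4, and chr13:107911053-107911072 (T4A and T6C, 4.31).

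The strongest peaks were at sites with partners, as were 200 of all 227 occupied sites. The 10 highest fold enrichments ran from 19.99 to 26.3, and 8 were at perfect sites. The highest was in an intron of POT1-AS1 (chr7:125454970-125454989, 26.3), followed by a UTR of DYNC1H1, the heavy chain of cytoplasmic dynein (chr14:102056335-102056354, 23.6), and an intergenic site on chromosome 8 (106087160 to 106087179, 23.3). Next came the site in a UTR annotated to ATG10 and RPS23 (chr5:82273409-82273428, 21.4) and the one 5100 bp from the TSS of MRPL20, a mitochondrial ribosomal protein gene (chr1:1412384-1412403, 21.4). Sites in an intron of UBTD1 (chr10:97561457-97561476) and in a UTR of the opioid receptor gene OPRM1 (chr6:154129143-154129162) both had 21.02. A site in an intron of FLOT2, which encodes a membrane raft protein, had 20.1 (chr17:28893914-28893933). The 2 imperfect sites were T1C at chr6:27285434-27285453 (20.7) and T7C at chr3:125597063-125597082 (19.99).

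H3K27ac overlapped a small part of these sites in every line. In K562, Molm13 and OCI-AML3 that share was above the share of all 20-nt words before NGG. In HL-60 no difference from that share was detectable, since the interval of its 9 sites (0.469 to 1.68%) included it. It overlapped 70 of the 1012 in K562 (6.92%), 62 in Molm13 (6.13%), 66 in OCI-AML3 (6.52%) and 9 in HL-60 (0.889%), where 3.43%, 2.8%, 3.23% and 1.31% of all 20-nt words before NGG overlapped a peak of the same lists. At 885 sites no line had a peak. Occupied sites carried the mark more often than unoccupied ones in Molm13 (23 of 227, 10.1%, against 39 of 785, 4.97%, Fisher's exact test, adjusted p = 0.0174), in OCI-AML3 (24, 10.6%, against 42, 5.35%, adjusted p = 0.0174) and in HL-60 (5, 2.2%, against 4, 0.51%, adjusted p = 0.0412). In K562, the line in which dCas9 was profiled, it was 19 (8.37%) against 51 (6.5%), a difference of 1.87 points (-1.66 to 6.46, exact Fisher's test, adjusted p = 0.372). These comparisons pooled sites of every mismatch number, which differed both in occupancy and in the mark. In K562 the mark lay at 3 of 95 occupied perfect sites (3.16%). It lay at 31 of 347 sites with 2 mismatches (8.93%), most of which were unoccupied. The number of mismatches was not held constant, so a similar share in K562 may hide differences within a mismatch class. The H3K27ac libraries of K562 and OCI-AML3 were from cells without sgRNAs, so the mark was read in the absence of LTR2B targeting.

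Perfect sites carried the mark at shares near those of all 20-nt words before NGG given above. Of the 110, H3K27ac overlapped 3 in K562 (2.73%), 4 in Molm13 (3.64%), 5 in OCI-AML3 (4.55%) and 2 in HL-60 (1.82%), and 104 had none in any line. At sites with 1 mismatch it overlapped 19 of 341 in K562 (5.57%), 32 in Molm13 (9.38%), 29 in OCI-AML3 (8.50%) and 2 in HL-60 (0.587%). At sites with 2 mismatches it overlapped 31 of 347 in K562 (8.93%), 12 in Molm13 (3.46%), 18 in OCI-AML3 (5.19%) and 3 in HL-60 (0.865%). With 3 mismatches the counts were 17 of 214 (7.94%), 14 (6.54%), 14 (6.54%) and 2 (0.935%) in the same order. Among the 107 sites with 1 mismatch and no partner, the mark was found in K562 at 4 of 21 occupied and 2 of 86 unoccupied sites, a difference of 16.7 points (3.97 to 37.7, exact Fisher's test, adjusted p = 0.0524). By the same exact test, in Molm13 the counts were 5 of 21 and 6 of 86 (adjusted p = 0.0757), in OCI-AML3 4 and 5 (adjusted p = 0.0958) and in HL-60 1 and 0 (adjusted p = 0.196). This subset was chosen after the data were seen, and none passed the threshold.

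Only 5 sites carried H3K27ac in all 4 lines. A perfect occupied site at chr19:52923974-52923993, in an exon of ZNF888-AS1 and 513 bp from the TSS of the zinc-finger gene ZNF888, had a dCas9 fold enrichment of 16.9 and H3K27ac fold enrichments of 4.27 in K562, 9.75 in Molm13, 3.82 in OCI-AML3 and 4.78 in HL-60. A perfect intergenic site at chr1:31483002-31483021, where all 3 partners were perfect, had 18.2 for dCas9. The T4A site at chr16:30453028-30453047 was occupied at 4.77. The other 2, chr9:137127770-137127789 (T4A and G10A) and chr20:35147810-35147829 (T4A, G10A and C14T, 483 bp from the TSS of EDEM2), were unoccupied. H3K27ac fold enrichments come from separate libraries and are not compared between lines.

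At 20 occupied T4A sites no other sgRNA had a site with NGG within 600 bp, although 7 of the 20 held an sgRNA 3 match and 2 an sgRNA 4 match of at most 3 mismatches that lacked the NGG. The APOC1 site (chr19:44914281-44914300, plus strand) lay in an annotated UTR, 35 bp from an annotated TSS of this apolipoprotein gene. Use of that TSS in these cells was not tested here. The study describes an LTR2 copy upstream of the APOC1 promoter, and it found no evidence that this copy acted as a promoter in K562 or OCI-AML3. It measured lower APOC1 expression after deleting the copy, and concluded that the copy acts as an enhancer of APOC1. The dCas9 peak at the APOC1 site had a fold enrichment of 8.505 with the summit at -1.5 bp. The site lay in H3K27ac peaks of K562 (4.15), OCI-AML3 (4.15) and Molm13 (8.745) but not of HL-60. Of the other occupied T4A sites without a partner, 3 carried K562 H3K27ac. One was 961 bp from the TSS of ODF3B (chr22:50533458-50533477, dCas9 fold enrichment 8.16, H3K27ac also in Molm13 and OCI-AML3). One was in an intron of the ubiquitin protease gene USP25 (chr21:15738981-15739000, 8.70), and one was at chr2:48206435-48206454 (8.70). The last 2 were marked in K562 alone.

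Altogether 19 occupied sites carried H3K27ac in K562, and 7 of them in no other line. Apart from those already described, ZNF611 had a perfect site 532 bp from its TSS (chr19:52735596-52735615, 12.0), marked in K562 only. A C13T site in an intron of AEN, an exonuclease gene (chr15:88622516-88622535, 8.70), was marked in K562, OCI-AML3 and Molm13, and a T4A site 1295 bp from the TSS of ZNF764 (chr16:30559660-30559679, 11.03) in K562 and Molm13. Intergenic T4A sites at chr5:82417742-82417761 (5.73), chr6:27774219-27774238 (6.21) and chr6:52303985-52304004 (3.75) were marked in every line but HL-60. T4A sites in an intron of ADCY10 (chr1:167863421-167863440, 5.67) and at chr18:8913957-8913976 (5.50) were marked in K562 alone. A T4A and G10A site in an intron of RBM15-AS1 (chr1:110330407-110330426) reached 12.8 and was marked in K562 only.

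Of 22 genes that the study named near its LTR2B and LTR2 copies, a list the study drew up on its own samples, 20 had an sgRNA 2 site within 50 kb and 19 an occupied one. Of all 20033 protein-coding genes, 5.42% had such a site and 1.82% an occupied one. Because the study looked for changed genes within that distance of peaks in this dCas9 library, the counts for the list are largely set by how it was drawn up and are given as a description. The nearest site was perfect for 9 genes and held 1 mismatch for 9. Some genes shared a site. That of APOC1 was also the nearest one to APOE, APOC2 and APOC4-APOC2, and the perfect site beside ZNF888 was the nearest to ZNF320. Near VWA1 the nearest site was T1C and A2G (chr1:1418509-1418528) in a UTR of ANKRD65, with a fold enrichment of 17.1. Near RNASET2, a ribonuclease gene, it was G3A (chr6:166958412-166958431, 4.64), 1230 bp from the TSS and marked in Molm13 and OCI-AML3. Perfect sites were nearest to APOL1 (chr22:36250568-36250587, 6.82), ASRGL1 (chr11:62326118-62326137, 11.8) and ZNF486 (chr19:20161760-20161779, 10.9). T4A sites were nearest to MS4A3 (chr11:60108648-60108667, 5.50), TNS4 (chr17:40499307-40499326, 8.92) and SPIRE1 (chr18:12552755-12552774, 9.67). Sites were ranked by distance to the gene body, and for ZNF586 and RHEX the nearest, inside the gene, was unoccupied (T4A and G10A at chr19:57815606-57815625, and G5A at chr1:206058762-206058781 with a peak 65 bp away). ZNF586 also had a perfect occupied site 1108 bp from its TSS (chr19:57768538-57768557, 10.2). RHEX had a further unoccupied G5A site 314 bp from its TSS (chr1:206052850-206052869), with a peak 40 bp away. IL23R and ZNF468 had no sgRNA 2 site with NGG within 50 kb.

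With NAG in place of NGG there were 115 further matches with at most 3 mismatches, of which 15 were occupied (13.0%). All 15 had a partner, and none of the 53 without one was occupied, which allows up to 5.66%. Of those 53, 8 held 0 or 1 mismatch.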

How the data were processed

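ChIP-seq peak lists of 5 libraries were used. Per the labels and the study's methods, the authors trimmed reads with Trim Galore 0.4.5, aligned them to hg38 with Bowtie2 (2.3.4 in the submitters' processing notes, another version in the methods), kept uniquely mapped reads and called peaks with MACS2 2.1.1, in broad mode for H3K27ac. The control library given to the caller is not given in the sources used here. Each deposited row holds a score, a fold enrichment (a ratio to local background), and −log10 p- and q-values, and the deposited dCas9 rows also a summit. Peaks numbered 393 for dCas9 and 20772 to 37571 for H3K27ac. Read counts were not analysed here, so depth is unknown and intervals cover counting error over sites only.

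Guide sequences came from the study's reagent list. Sites were searched in hg38 with numba 0.67.0 and pysam 0.24.0, annotated with GENCODE v44, and scored by an overlap of at least 1 bp. Shares have 95% Wilson intervals (statsmodels 0.14.6), differences Newcombe intervals, and tests were two-sided Fisher's exact tests (SciPy 1.17.1) with Benjamini-Hochberg adjustment within each family. Flanks were aligned with edlib. A share of 0 is given with the limit that 3 counts of the total allow. The search, overlaps and tests were checked on simulated data and against bedtools. Sites named were the perfect unoccupied sites, occupied sites with 2 or 3 mismatches, perfect sites without a partner, the 10 strongest peaks, sites with H3K27ac in all 4 lines or occupied with K562 H3K27ac, and the nearest site to each of 22 genes; of long sets some are named and the rest counted. The members and lists were chosen with earlier results of these data known.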

Additional observations from a re-analysis of the deposited data

How the results depend on the processing

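Of 65 recomputed differences over 13 comparisons, 58 kept their direction and their side of the threshold, 6 no longer passed it, 1 newly passed it and 0 turned direction. Of the 58, 16 were identical because the setting changed no site compared, and say nothing of stability (12 with 1 site per locus and 4 with a shorter or longer partner distance), which leaves 42. The 2 settings chosen after the data were seen (a dCas9 peak within 200 bp, and 1-mismatch sites without a partner) are included. Not included is the PAM-proximal against PAM-distal comparison among sites with a partner of at most 1 mismatch. There the direction turned (8 of 16, 50%, against 36 of 54, 66.7%). Perfect against 1-mismatch sites ranged from 54.7 to 61.4 points and 1 against 2 mismatches from 17.15 to 19.7, under stricter peaks (q below 0.001), summits within 100 bp, 1 site per locus, without chromosome Y, with NAG and with a peak within 200 bp. None of these settings held partners constant. With partners of at most 1 mismatch, the difference at 1-mismatch sites rose to 45.5 points (Fisher's exact test). sgRNA 2 against sgRNA 4 fell to 9.48 points (adjusted p = 0.115) for summits within 100 bp, and sgRNA 2 against sgRNA 1 to 6.16 points for a peak within 200 bp. Counting positions 9 to 20 as PAM-proximal gave 18.01 points (Fisher's exact p = 0.0844). Among 1-mismatch sites without a partner, occupied against unoccupied H3K27ac differed by 16.8 points in Molm13, 13.2 in OCI-AML3 and 4.76 in HL-60, where fewer sites were tested. The causes of the other changes were not tested. Searching NAG in place of NGG gave 115 sites. No paired analysis was possible because the lists compared come from 1 library per group, and leaving out a replicate was likewise impossible. The peak lists limit every statement to called peaks, since weaker binding below the caller's threshold is not listed.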
